A study of Homo sapiens with 18 samples.

Results

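HOX genes encode homeodomain transcription factors that lie in 4 chromosomal clusters, HOXA to HOXD. The members described here are the genes whose annotated symbol is HOX followed by a cluster letter from A to D and a paralog number. With probe sets of 1 symbol, 28 of the 19775 genes on the array met that rule: HOXA2 alone from the HOXA cluster, 10 of the HOXB cluster (HOXB1 to HOXB9 and HOXB13), 9 of the HOXC cluster (HOXC4, HOXC5, HOXC6 and HOXC8 to HOXC13) and 8 of the HOXD cluster (HOXD1, HOXD4 and HOXD8 to HOXD13). Other HOX genes were not analysed here, and HOXD3 only had probe sets shared with HOXD4. The brightest probe set stood for each gene.

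RNA came from the established human melanoma lines A375, SKMEL5 and WM2664, given A-485 or the solvent DMSO and collected after 6 h or 24 h. A-485 is a small molecule that blocks the acetyltransferase activity of the coactivators p300 and CBP. Each line and time had 1 A-485 array, at a dose the labels give as 3 mM for all of them (a micromolar dose may be meant, which no source used here settles), and 2 DMSO arrays, which makes 18 Affymetrix HG-U133 Plus 2.0 arrays. The series compares lines that differ in their sensitivity to the compound, but the labels do not say which line is sensitive.

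HOX genes set the identity of segments along the body axis of the embryo, and their order along a cluster follows the order of the regions in which they are used. Low paralog numbers act in the head and neck end and high numbers in the tail end and the limbs, and cells in culture often keep the HOX pattern of the body site they came from. The clusters are held silent by polycomb complexes and kept active by trithorax complexes, retinoic acid induces their low-numbered ends, and HOX proteins bind DNA with PBX and MEIS partners of the TALE family. Acetylation of histones by p300 and CBP marks active enhancers and promoters, and melanocytes arise from the neural crest, a cell population whose head and trunk parts differ in HOX expression.

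Levels are given as scaled intensity, the deposited probe set intensity after quantile normalization between arrays, in arbitrary units. Intensities under 32 were set to a floor of 32 before log2 was taken, so a level at the floor has no order below it. Levels of different genes cannot be compared on these arrays, and every comparison is of 1 gene between arrays. Differences are log2 ± SE from limma, fitted to all 18 arrays, and a difference was called at an adjusted p (Benjamini-Hochberg over the 13696 genes tested in that contrast) under 0.05. The labels do not say whether replicates were separate cultures, and the p-values cover no more than the scatter of these arrays. Each A-485 array stands alone and takes its spread from the DMSO pairs. A pair with both arrays at the floor shows no scatter, so a gene at the floor in some lines can have an SE that is too small. The number of arrays limits the precision, and the median SE of an A-485 difference was 0.262 for the 26 HOX genes tested, against 0.134 over all genes.

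On 3 DMSO arrays there was a small share of transcripts typical of another line. The excess was 0.77% of the SKMEL5 level on A375 DMSO 6 h replicate 1, 1.63% of the SKMEL5 level on WM2664 DMSO 6 h replicate 1, and 0.718% of the A375 level on WM2664 DMSO 24 h replicate 2. Without these 3 arrays, 15 of the 23 A-485 calls given below and 46 of 54 calls between lines remained, and the A-485 calls lost were HOXB8, HOXC10 and HOXD1 in A375 at 6 h, HOXC6 in A375 at 24 h, HOXB3, HOXB8 and HOXD8 in SKMEL5 at 24 h and HOXC4 in WM2664 at 6 h. None of the 3 arrays enters the SKMEL5 differences or HOXC6 in A375 at 24 h, which stayed at 1.32 for HOXB3, 0.75 for HOXB8, 0.59 for HOXD8 and 0.26 for HOXC6 (log2). An array of another line or time enters an A-485 difference through the normalization and the estimate of the spread alone. The melanocyte markers of these lines differed as well. Their sum over 6 measured markers was 380.8 to 1909 on A375 arrays, 35580 to 45870 on SKMEL5 arrays and 14100 to 28870 on WM2664 arrays, and all 6 were called lower in A375 than in either other line. Leukocyte markers were at the floor on all arrays of SKMEL5 and WM2664 (3 of 3) and for 2 of 3 in A375, and PTPRC and CD14 in all 3 lines. Of 5 keratinocyte markers, 4 were at the floor on all 6 arrays of A375, 3 in SKMEL5 and 5 in WM2664, with KRT5 and EPCAM at the floor in every line. KRT14 was above the floor on all A375 arrays (86.37 to 335.9) and CDH1 on all SKMEL5 arrays (212.8 to 809.8), and the keratinocyte sum was 110.5 to 356.6 on A375 arrays, 221.3 to 842.8 on SKMEL5 arrays and 22 to 53.01 on WM2664 arrays. Of 6 fibroblast markers, 3 in each line were at the floor on all 6 arrays, with COL3A1 and PDGFRA among them in every line, but others were bright. COL1A1 read 402.9 to 2308 in A375, LUM 3511 to 4821 in SKMEL5 and COL1A2 2639 to 5503 in WM2664. The fibroblast sum was 551.2 to 2654 on A375 arrays, 3939 to 5311 on SKMEL5 arrays and 2838 to 5601 on WM2664 arrays, and the part of these markers in the HOX results was not tested.

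In DMSO the lines carried different parts of the clusters. Of the 28 members, 19 were above the floor on all 4 DMSO arrays of A375, 12 on those of SKMEL5 and 21 on those of WM2664. Over all 19775 genes the shares above the floor were 53.8% in A375, 53.4% in SKMEL5 and 52.9% in WM2664. On all 12 DMSO arrays together, 8 members were above the floor, namely HOXB3, HOXB5, HOXB7, HOXB9, HOXC4, HOXC6, HOXC9 and HOXD8. The share of all genes above the floor on all 12 was not computed. HOXC12 and HOXD12 were at the floor on all 18 arrays, which left 26 members to test.

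The HOXB cluster was above the floor on all 4 DMSO arrays for 9 of 10 members in A375, 4 of 10 in SKMEL5 and 9 of 10 in WM2664. For the HOXC cluster the counts were 8 of 9 in A375, 4 of 9 in SKMEL5 and 5 of 9 in WM2664. For the HOXD cluster they were 2 of 8 in A375, 4 of 8 in SKMEL5 and 6 of 8 in WM2664. HOXA2, which gives the second pharyngeal arch its identity in the mouse, was above the floor on all 4 DMSO arrays of WM2664, on 3 of 4 in A375 and on none in SKMEL5. Its WM2664 readings, 36.1 to 54.4, were within 2-fold of the floor, and HOXA2 was called in no line contrast.

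**Figure D1:**
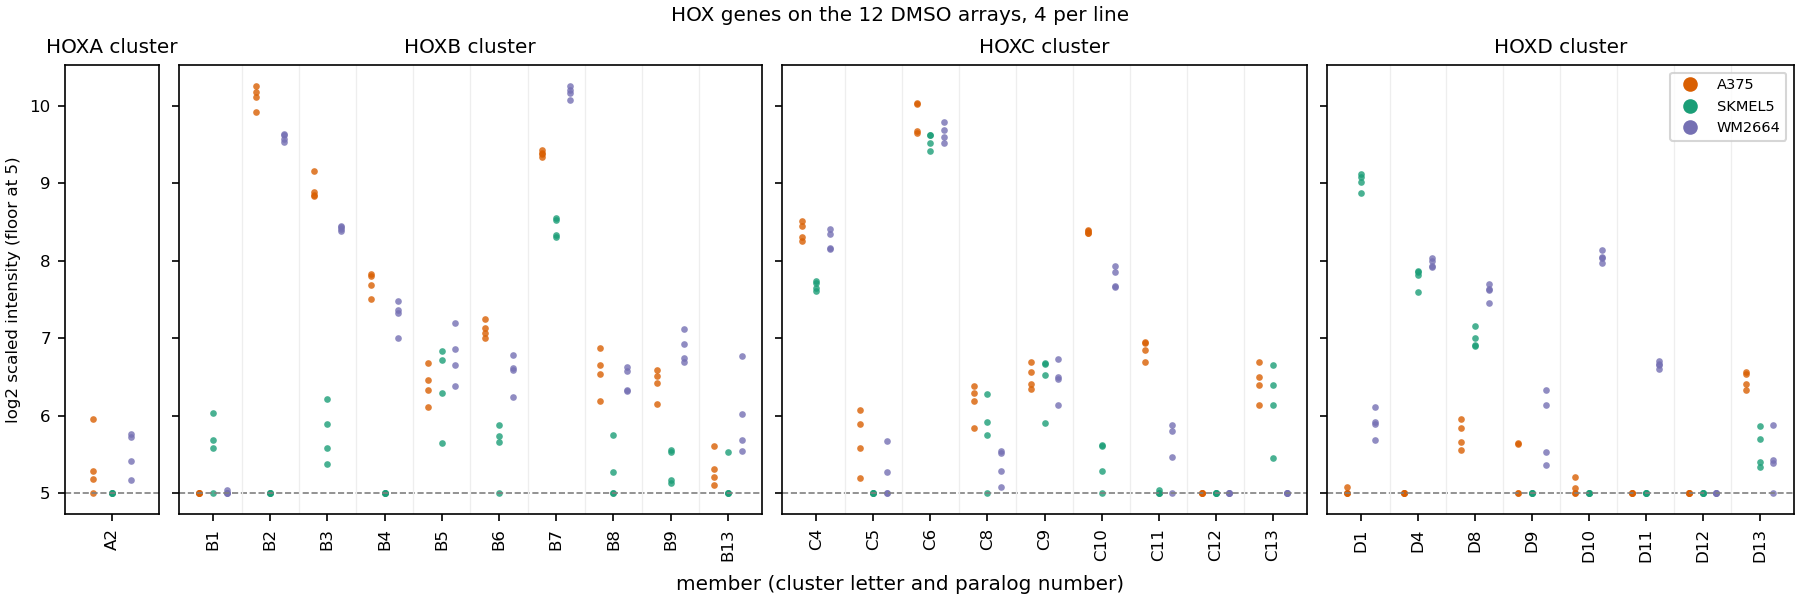
Level of each of the 28 members on the 12 DMSO arrays, as log2 scaled intensity on the vertical axis, with the clusters in separate panels and members in paralog order along the horizontal axis. Each point is 1 array (A375 orange, SKMEL5 green, WM2664 purple), the dashed line is the floor, and heights of different members cannot be compared. HOXB2 and HOXB4 lie on the floor in SKMEL5 and above it in A375 and WM2664, HOXD4 lies on the floor in A375 alone, and HOXD11 is above the floor in WM2664 alone.

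Between A375 and SKMEL5, 17 of 26 members were called, a share of 65.4%, where 70.2% of all genes tested were called. Of these, 13 were higher in A375 (all genes 37.2%) and 4 were lower (all genes 33.0%). Between A375 and WM2664, 18 of 26 were called, 69.2% against 69.6% of all genes, with 10 higher in A375 (all genes 38.5%) and 8 lower (all genes 31.0%). Between SKMEL5 and WM2664, 19 of 26 were called, 73.1% against 62.1% of all genes, and 16 of the 19 were lower in SKMEL5 (all genes 29.6%) and 3 higher (all genes 32.6%). The share of members called was near the background in the A375 contrasts. The sizes of the differences were set against all genes by the signed medians alone. The median difference of the tested members was 0.40 for A375 minus SKMEL5, 0.08 for A375 minus WM2664 and -0.60 for SKMEL5 minus WM2664, while the medians over all genes were 0.00, 0.04 and 0.00. In cells grown in bulk, fewer cells that use a gene and less RNA per cell cannot be told apart. The 6 melanocyte markers differed between the same lines, and their part in the HOX differences was not tested.

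**Figure D2:**
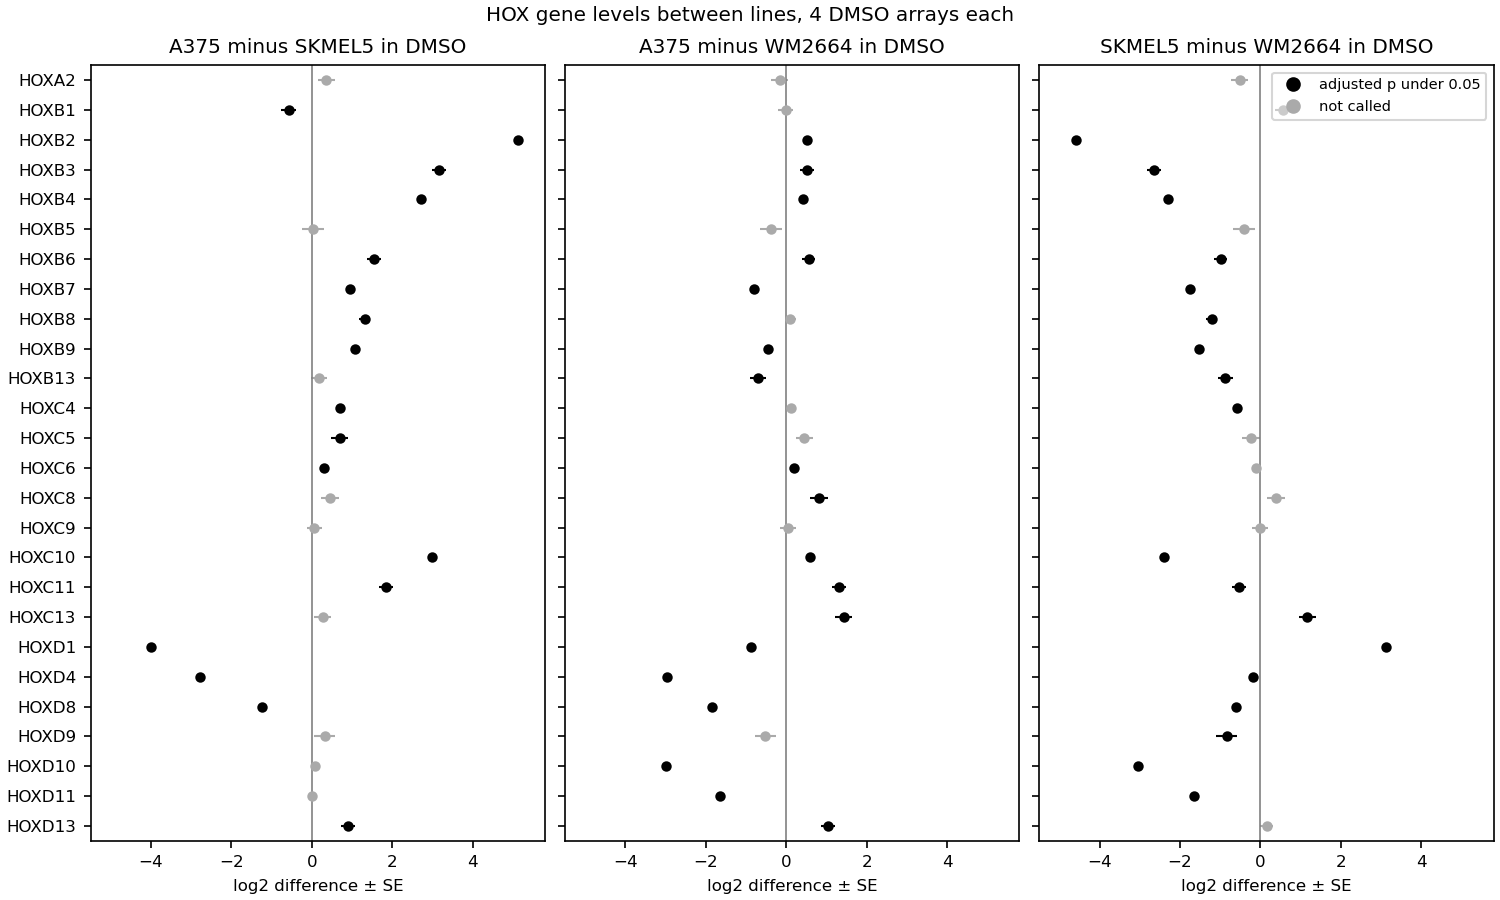
Differences between lines for the 26 tested members, from the 4 DMSO arrays of each line. The horizontal axis is the log2 difference, bars are the SE from limma, and black points were called while grey ones were not. The HOXB and HOXC members lie mostly right of 0 for A375 minus SKMEL5, and HOXD1 lies at -4.01 there and at 3.12 for SKMEL5 minus WM2664.

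In the HOXB cluster, 7 of 10 members were called higher in A375 than in SKMEL5 (all genes 37.2%). Lower in SKMEL5 than in WM2664 were 8 of 10 (all genes 29.6%). HOXB1, which was near the floor, was called the other way in both contrasts. Its log2 difference was -0.57 ± 0.19 for A375 minus SKMEL5 and 0.56 ± 0.19 for SKMEL5 minus WM2664 (limma adjusted p = 0.0266 and 0.0326). The low-numbered members HOXB2, HOXB3 and HOXB4 differed most from SKMEL5 in both contrasts. HOXB2, a regulator of hindbrain segments, read 1222 and 965.4 on the A375 DMSO arrays at 6 h and 1112 and 1156 at 24 h. The SKMEL5 DMSO arrays were all at the floor for HOXB2. The WM2664 DMSO arrays read 789 and 762 at 6 h and 793 and 741 at 24 h, below every A375 array. The level was at least 34.7-fold higher in A375 than in SKMEL5 (log2 difference 5.12 ± 0.07, limma adjusted p = 3.42e-10), and at least 24.1-fold lower in SKMEL5 than in WM2664 (limma adjusted p = 1.05e-09). A375 was 0.53 ± 0.07 above WM2664 (log2, limma adjusted p = 0.000224).

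HOXB3, also a hindbrain gene and one used in blood progenitors, read 570.5 and 474 on the A375 DMSO arrays at 6 h and 456 and 461 at 24 h. On the SKMEL5 DMSO arrays it read 41.5 and 74.6 at 6 h and 59.2 and 47.7 at 24 h. On the WM2664 DMSO arrays it read 349 and 346 at 6 h and 340 and 335 at 24 h. The lines did not overlap, in the order A375, WM2664, SKMEL5, and the log2 difference was 3.17 ± 0.17 for A375 minus SKMEL5 (limma adjusted p = 8.33e-07) and -2.65 ± 0.17 for SKMEL5 minus WM2664 (limma adjusted p = 3.55e-06). HOXB4, known for expanding blood stem cells, averaged 209.9 ± 20.7 in A375 (SD, n = 4) and was at the floor on all 4 SKMEL5 DMSO arrays, at least 6.53-fold lower there. It averaged 158 ± 21.3 in WM2664 (SD, n = 4).

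The remaining HOXB members differed less from SKMEL5. Between A375 and WM2664 the order was another, with HOXB7 at -0.79, HOXB13 at -0.70 and HOXB6 at 0.56, beside 0.53 for HOXB2, 0.51 for HOXB3 and 0.42 for HOXB4 (log2). HOXB7, which has been reported to switch on basic fibroblast growth factor in melanoma cells, averaged 668 ± 18.25 in A375, 346 ± 30.7 in SKMEL5 and 1158 ± 64.1 in WM2664 (SD, n = 4 each), and the lines did not overlap. HOXB9, a thoracic gene, averaged 86.35 ± 11.0 in A375, 41.1 ± 6.56 in SKMEL5 and 117.8 ± 16.1 in WM2664 (SD, n = 4 each). HOXB6 and HOXB8 were higher in A375 than in SKMEL5 by 1.55 ± 0.16 and 1.31 ± 0.14 (log2). HOXB13, known as a partner of the androgen receptor in prostate, was called lower in A375 than in WM2664 (-0.70 ± 0.19) and lower in SKMEL5 than in WM2664 (-0.87 ± 0.19). HOXB5 was called in no line contrast on its brightest probe set, but its other probe set differed by 0.85 between A375 and SKMEL5, where the brightest gave 0.02.

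In the HOXC cluster the widest differences between A375 and SKMEL5 lay at HOXC10 and HOXC11, genes of the lumbar spinal level and hindlimb. Between A375 and WM2664 they lay at HOXC13 (1.43) and HOXC11 (1.32), and between SKMEL5 and WM2664 at HOXC10 (-2.40) and HOXC13 (1.16, all log2). HOXC10 averaged 332 ± 3.53 in A375, 42.3 ± 8.32 in SKMEL5 and 220.3 ± 21.2 in WM2664 (SD, n = 4 each), with no overlap between lines, and A375 lay 3.00 ± 0.06 above SKMEL5 (log2, limma adjusted p = 2.54e-09). HOXC11 averaged 116 ± 9.56 in A375 (SD, n = 4). It was above the floor on 1 DMSO array of SKMEL5 and on 3 of WM2664. HOXC13, which controls keratin genes of hair and nail, was the only member at the floor on all DMSO arrays of WM2664 and above it on all DMSO arrays of A375 and of SKMEL5. Its averages were 87.1 ± 13.8 in A375 and 74.9 ± 24.1 in SKMEL5 (SD, n = 4 each). HOXC6 and HOXC9 were above the floor on every array, and HOXC9 was called in no line contrast.

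In the HOXD cluster the lines took different members. HOXD1, the low-numbered end of the cluster, was high in SKMEL5, while HOXD10 and HOXD11, at the posterior and limb end, were highest in WM2664. HOXD13, at the same end, was highest in A375. HOXD4 and HOXD8 were shared by SKMEL5 and WM2664 and lower in A375. The promoter sequences of HOXD1, HOXD10 and HOXD11 are shown because these genes set SKMEL5 and WM2664 apart and because HOXD1 moved most with A-485. Each is the 250 bases before the gene's start from RefSeq (GRCh38.p14), on the + strand, at chr2:176188418-176188667 for HOXD1, chr2:176116528-176116777 for HOXD10 and chr2:176107030-176107279 for HOXD11. Capitals mark matches, on either strand, to the GC box GGGCGG, the E-box CACGTG and the HOX-PBX site TGATNNAT, and no 2 matches overlap in these windows.

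HOXD1: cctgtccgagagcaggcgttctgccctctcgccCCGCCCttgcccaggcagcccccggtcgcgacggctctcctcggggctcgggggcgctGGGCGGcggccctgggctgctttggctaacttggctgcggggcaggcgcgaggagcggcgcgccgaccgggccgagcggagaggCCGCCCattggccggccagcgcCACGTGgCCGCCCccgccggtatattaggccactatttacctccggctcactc

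HOXD10: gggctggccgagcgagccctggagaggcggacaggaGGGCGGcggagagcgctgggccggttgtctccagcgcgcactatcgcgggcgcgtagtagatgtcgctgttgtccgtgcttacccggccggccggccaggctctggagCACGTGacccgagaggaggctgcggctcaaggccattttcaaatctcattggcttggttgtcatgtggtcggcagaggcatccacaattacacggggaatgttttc

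HOXD11: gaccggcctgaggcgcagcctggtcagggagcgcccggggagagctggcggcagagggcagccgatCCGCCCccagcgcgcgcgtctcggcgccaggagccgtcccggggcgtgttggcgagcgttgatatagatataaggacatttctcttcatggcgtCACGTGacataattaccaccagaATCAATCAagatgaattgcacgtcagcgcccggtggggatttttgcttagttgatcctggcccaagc

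The HOXD1 window held 4 GC boxes and 1 E-box, and 74.8% of its bases were G or C. The HOXD10 window held 1 GC box and 1 E-box, and the HOXD11 window held 1 GC box, 1 E-box and 1 HOX-PBX site. Of the 35116 promoters in the RefSeq table, 42.6% held a GC box, 6.34% held the E-box and 6.47% the HOX-PBX site in the same 250 bases. Windows were at hand for 11 members, of which HOXC4 and HOXC5 have the same window, and HOXD1, HOXD10, HOXD11 and HOXD13 held the E-box, and HOXA2, HOXB1 and HOXD11 the HOX-PBX site. The cAMP response element TGACGTCA, found in 1.65% of all promoters, was in none of the 11 windows, and the TATA box TATAAA, found in 10.7%, was in that of HOXD13. A match is a run of letters and does not show that a factor binds there.

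HOXD1, which in the mouse shapes the wiring of pain-sensing neurons, read 520 and 543 on the SKMEL5 DMSO arrays at 6 h and 556 and 470.2 at 24 h. On A375 DMSO arrays it was above the floor on 1 of 4, at 33.9. On WM2664 DMSO arrays it read 69.1 and 59.5 at 6 h and 60.4 and 51.6 at 24 h. SKMEL5 stood above every array of the other lines. A375 minus SKMEL5 was -4.01 ± 0.08 (log2, limma adjusted p = 2.29e-09), and SKMEL5 lay 3.12 ± 0.08 above WM2664 (limma adjusted p = 1.57e-08). The fold against A375 is compressed by the floor. The other probe set of HOXD1 was at the floor on all 18 arrays.

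HOXD10, a posterior gene that restrains cell invasion in breast cancer models, read 250.3 and 263 on the WM2664 DMSO arrays at 6 h and 264 and 281 at 24 h. The A375 DMSO arrays read 37.1 and the floor at 6 h and the floor and 33.5 at 24 h. The SKMEL5 DMSO arrays were all at the floor for HOXD10, at least 8.27-fold below WM2664 (limma adjusted p = 2.04e-09). Its other 2 probe sets were at the floor in A375 and SKMEL5 and above it in WM2664 as well, with smaller differences of -0.65 and -0.78 for A375 minus WM2664. HOXD11, which builds the forearm together with its HOXA paralog in the mouse, averaged 101 ± 3.06 in WM2664 (SD, n = 4) and was at the floor on every array of A375 and of SKMEL5. HOXD4 was at the floor on every A375 array and averaged 220.6 ± 17.9 in SKMEL5 and 251 ± 9.80 in WM2664 (SD, n = 4 each). HOXD8 averaged 54.3 ± 6.54 in A375, 127.7 ± 10.85 in SKMEL5 and 195 ± 14.2 in WM2664 (SD, n = 4 each), with no overlap between lines. HOXD13, mutated in inherited fusion of the digits, was higher in A375 than in SKMEL5 by 0.89 ± 0.17 and than in WM2664 by 1.04 ± 0.17 (log2).

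The noncoding RNAs and neighbouring genes of the HOXD cluster differed between the lines too. HAGLR, an antisense RNA that starts beside HOXD1, was lower in A375 than in SKMEL5 by 2.92 (log2 difference -2.92 ± 0.27, limma adjusted p = 2.04e-05) and than in WM2664 (-2.91 ± 0.27). SKMEL5 minus WM2664 was 0.01 ± 0.27 for HAGLR, not called, while HOXD1 differed between them. HOXD-AS2, another antisense RNA of the cluster, was lower in A375 than in SKMEL5 (-1.44 ± 0.09) and than in WM2664 (-1.01 ± 0.09). These arrays read the 3' part of transcripts with labelled RNA of 1 sense, and whether a probe set separates an antisense RNA from its partner was not tested. Of 15 HOX cluster noncoding RNAs listed, 10 were measured and 4 were bright enough to test, and HOTAIR of the HOXC cluster was above the floor on 1 array of 18. Among 12 tested genes that lie beside the clusters, 8 were lower in A375 than in either other line. Over all genes tested, 20.4% were lower in A375 than in both. The 8 included the HOXD neighbours LNPK (-1.17 ± 0.07 for A375 minus SKMEL5) and MTX2 (-0.93 ± 0.03 for the same contrast), and the HOXA neighbours SKAP2, SNX10 and HIBADH.

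Treatment with A-485 changed between 3 and 7 HOX genes by line and time, and in no contrast were more than 3 members of a cluster called in 1 direction. In A375 at 6 h, 4 of 26 members were called (15.4%, against 12.5% of all genes tested), with HOXD1 and HOXD10 higher (5.53% of all genes were) and HOXB8 and HOXC10 lower (all genes 6.98%). In A375 at 24 h, 3 of 26 were called (11.5%, against 17.4%), and HOXC4, HOXC6 and HOXD10 were higher (all genes 8.91%) and none lower (all genes 8.47%). In SKMEL5 at 6 h, 3 of 26 were called (11.5%, against 22.2%), with HOXB7 and HOXC6 higher (all genes 12.6%) and HOXD1 lower (all genes 9.63%).

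In SKMEL5 at 24 h, 7 of 26 were called (26.9%, against 36.0%), of which HOXB3, HOXB7, HOXB8, HOXC4, HOXC6 and HOXD8 were higher (all genes 20.4%) and HOXD1 was lower (all genes 15.6%). In WM2664 at 6 h, 3 of 26 were called (11.5%, against 26.0%), with HOXB2 and HOXC4 higher (all genes 15.1%) and HOXD11 lower (all genes 11.0%). In WM2664 at 24 h, 3 of 26 were called (11.5%, against 32.8%), with HOXB2 and HOXC6 higher (all genes 17.9%) and HOXB9 lower (all genes 15.0%). The shares called were below those of all genes except in A375 at 6 h, where they were close. Members at the floor on every array of a comparison could not be called. In SKMEL5 these were HOXA2, HOXB2, HOXB4, HOXC5, HOXD9, HOXD10 and HOXD11. The median SE of the members was also larger, at 0.262 against 0.134 over all genes, and whether members respond less than other genes was not tested. The median difference of the members was between 0.00 and 0.19 (log2) in the 6 contrasts, where the median of all genes was between 0.00 and 0.01.

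**Figure D3:**
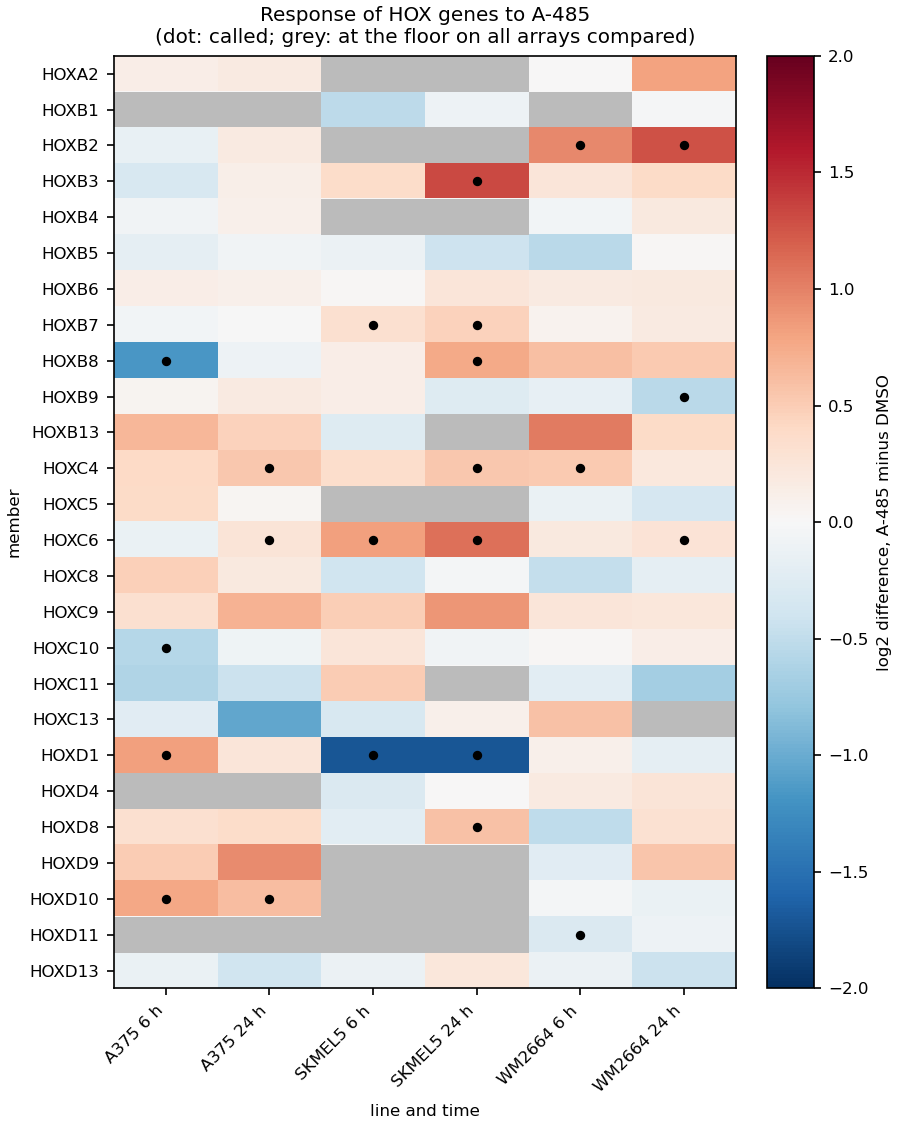
Difference between A-485 and DMSO for each tested member (rows, in cluster order) in each line and time (columns), as log2 difference from blue (lower with A-485) to red (higher with A-485). Dots mark called differences, and grey cells have every array of the comparison at the floor. HOXD1 in SKMEL5 gives the deepest blue cells, at -1.71 and -1.70, and HOXB2 in WM2664 is called at both times, at 0.96 and 1.28.

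HOXD1 fell with A-485 in SKMEL5, the line in which it was highest. It read 162.5 on the A-485 array at 6 h, against 520 and 543 on DMSO arrays, and 157 on the A-485 array at 24 h, against 556 and 470.2 on DMSO arrays. Both A-485 arrays were below every DMSO array of the line. The level was 3.27-fold lower at 6 h (log2 difference -1.71 ± 0.14, limma adjusted p = 0.00018) and 3.26-fold lower at 24 h (-1.70 ± 0.14, limma adjusted p = 7.33e-05).

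In WM2664 HOXD1 was dim, at 69.0 on the A-485 array, against 69.1 and 59.5 on DMSO arrays, at 6 h. At 24 h it read 49.2 on the A-485 array, against 60.4 and 51.6 on DMSO arrays, and neither difference was called. In A375 it read 56.3 on the A-485 array at 6 h, against the floor on both DMSO arrays, at least 1.76-fold higher (limma adjusted p = 0.00773). At 24 h the A375 A-485 array read 38.8, against 33.9 and the floor on DMSO arrays, and the difference was not called. The A375 level at 6 h was within 2-fold of the floor, and the call was lost with a floor of 64, with the deposited values, and without the arrays that carry transcripts of another line.

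The difference in HOXD1 response between SKMEL5 and the other lines was itself called at both times. It was 2.52 ± 0.19 for A375 minus SKMEL5 at 6 h (log2, limma adjusted p = 0.000281) and 1.94 ± 0.19 at 24 h (limma adjusted p = 0.000341). For SKMEL5 minus WM2664 it was -1.82 ± 0.19 at 6 h (limma adjusted p = 0.00226) and -1.52 ± 0.19 at 24 h (limma adjusted p = 0.00192). Both SKMEL5 minus WM2664 calls were lost with a floor of 16, which left their sizes at -1.82 and -1.52, and with the deposited values, and the A375 minus SKMEL5 call at 6 h was lost with the deposited values. HOXD1 was near the floor in the other lines, so a fall of the size seen in SKMEL5 could not have been measured in A375 and hardly in WM2664.

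HAGLR, the antisense neighbour of HOXD1, read 139 on the SKMEL5 A-485 array at 6 h, against 267 and 292 on DMSO arrays. At 24 h it read 200.7 on the SKMEL5 A-485 array, against 362 and 432 on DMSO arrays. Each A-485 array was below both DMSO arrays, but the differences of -1.005 ± 0.462 and -0.98 ± 0.46 were not called (limma adjusted p = 0.181 and 0.147). In WM2664 the HAGLR differences were -0.55 ± 0.46 at 6 h and -0.85 ± 0.46 at 24 h, not called either. Of the other tested HOXD members, HOXD9, HOXD10 and HOXD11 were at the floor on all SKMEL5 arrays and could show no fall. At 6 h the rest differed by -0.30 for HOXD4 (limma adjusted p = 0.0552), -0.21 for HOXD8 and -0.12 for HOXD13, none called. At 24 h HOXD4 differed by 0.00 and HOXD13 by 0.22, neither called, and HOXD8 was called higher (0.59 ± 0.16, limma adjusted p = 0.0253).

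HOXC6, a gene of the thoracic level that is often raised in breast and prostate tumours, rose with A-485 in SKMEL5. It read 1385 on the A-485 array at 6 h, against 786 and 791 on DMSO arrays, and 1514 on the A-485 array at 24 h, against 732.5 and 685 on DMSO arrays. The A-485 arrays were above every DMSO array of the line. The rise was 1.76-fold at 6 h (0.81 ± 0.07, limma adjusted p = 0.000226) and 2.14-fold at 24 h (1.10 ± 0.07, limma adjusted p = 2.12e-05).

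In A375 HOXC6 read 743 on the A-485 array at 6 h, against 804 and 820.2 on DMSO arrays, which was not called. At 24 h it read 1249 on the A375 A-485 array, against 1048 and 1039 on DMSO arrays (0.26 ± 0.07, limma adjusted p = 0.0386). In WM2664 it read 860.2 on the A-485 array at 6 h, against 773 and 732 on DMSO arrays, not called. At 24 h it read 1029 on the WM2664 A-485 array, against 823 and 883 on DMSO arrays (0.27 ± 0.07, limma adjusted p = 0.0195). The DMSO level of HOXC6 was close in the 3 lines, so the response could be compared without the floor. The response in SKMEL5 exceeded that in A375, by -0.94 ± 0.10 at 6 h and -0.84 ± 0.10 at 24 h for A375 minus SKMEL5 (limma adjusted p = 0.00114 and 0.000761). It exceeded that in WM2664 by 0.62 ± 0.10 at 6 h and 0.83 ± 0.10 at 24 h for SKMEL5 minus WM2664 (limma adjusted p = 0.012 and 0.00138). The DMSO level of HOXC6 also differed by time in A375, by 0.36 ± 0.06 for 24 h minus 6 h (limma adjusted p = 0.0242).

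HOXB2 rose with A-485 in WM2664. It read 1507 on the A-485 array at 6 h, against 789 and 762 on DMSO arrays, and 1861 on the A-485 array at 24 h, against 793 and 741 on DMSO arrays. The groups did not overlap, and the rise was 1.94-fold at 6 h (0.96 ± 0.12, limma adjusted p = 0.00107) and 2.43-fold at 24 h (1.28 ± 0.12, limma adjusted p = 0.000217).

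In A375 HOXB2 read 977 on the A-485 array at 6 h, against 1222 and 965.4 on DMSO arrays, and 1289 on the A-485 array at 24 h, against 1112 and 1156 on DMSO arrays, with neither called. In SKMEL5 it was at the floor on all 6 arrays, with A-485 as with DMSO. The response was smaller in A375 than in WM2664, by -1.11 ± 0.17 at 6 h (limma adjusted p = 0.00622) and by -1.10 ± 0.17 at 24 h (limma adjusted p = 0.00422). HOXB4, which was bright in A375 and WM2664, was called with A-485 in neither line at either time. The WM2664 differences of its neighbours at 24 h were 0.39 ± 0.30 for HOXB3 and 0.20 for HOXB4, not called, and HOXB2 was not tested against them.

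**Figure D4:**
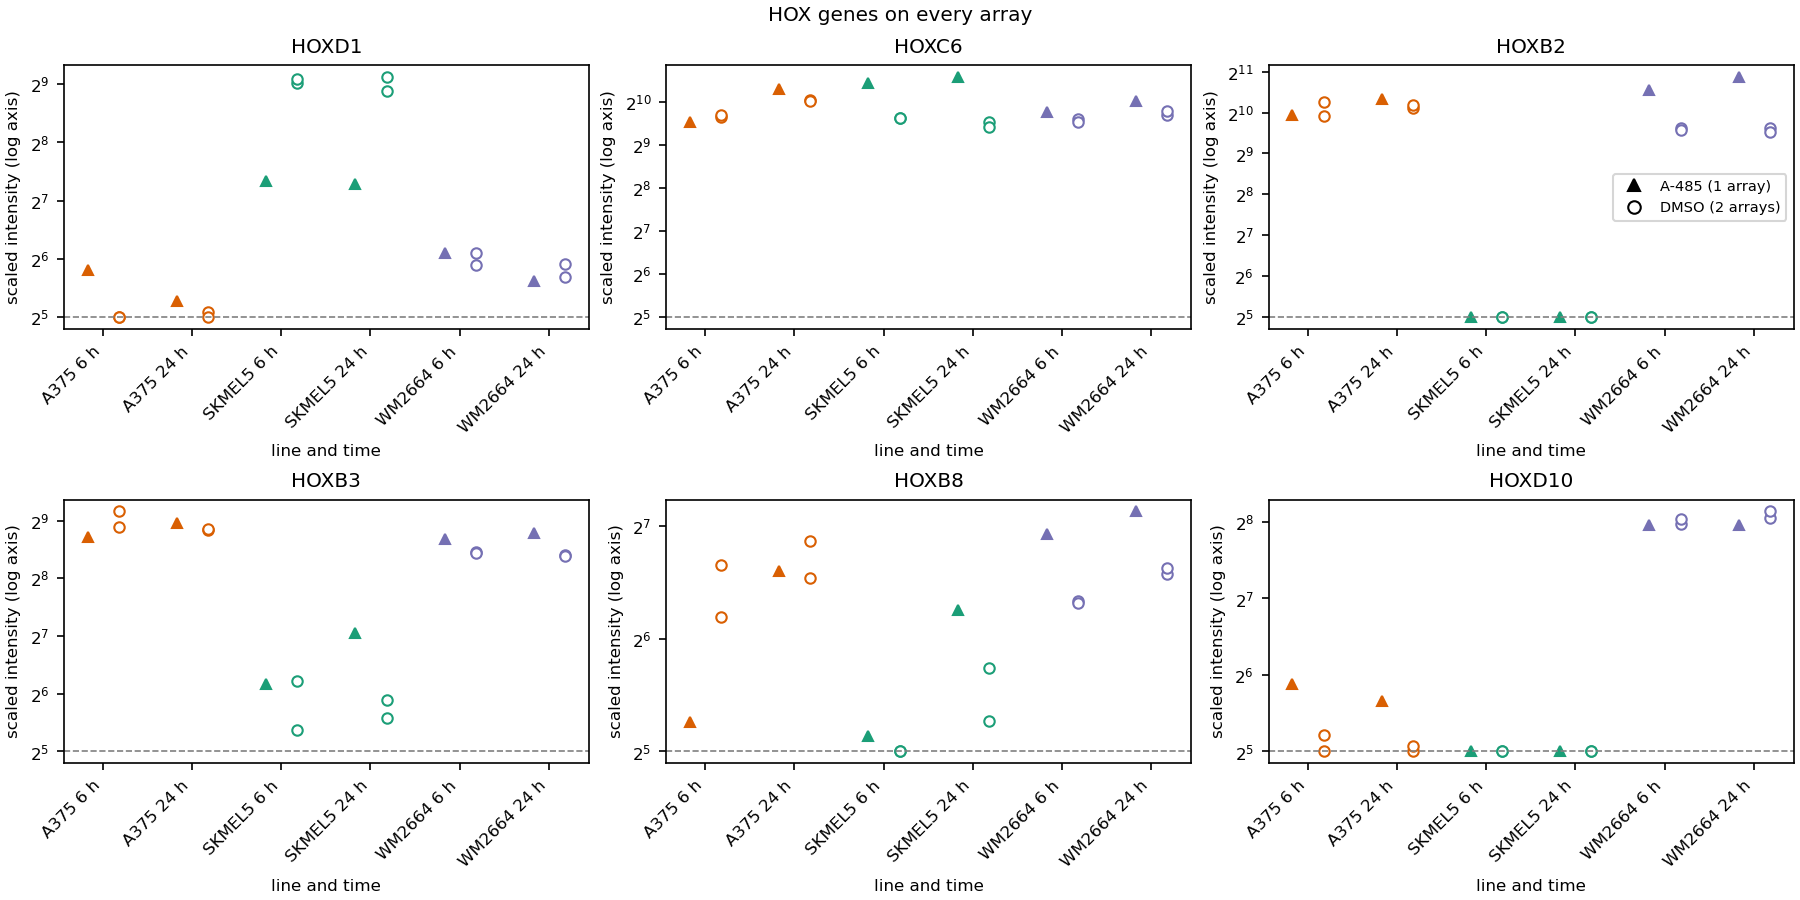
Scaled intensity of HOXD1, HOXC6, HOXB2, HOXB3, HOXB8 and HOXD10 on each of the 18 arrays, on a log axis with the floor of 32 as a dashed line. Filled triangles are the single A-485 arrays and open circles the DMSO pairs, for A375 (orange), SKMEL5 (green) and WM2664 (purple) at 6 h and 24 h. In SKMEL5 the HOXD1 triangles, at 162.5 and 157, lie below all DMSO circles, and in WM2664 the HOXB2 triangles, at 1507 and 1861, lie above all DMSO circles.

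HOXB3 rose in SKMEL5 at 24 h, where its DMSO level was low. It read 132.9 on the A-485 array at 24 h, against 59.2 and 47.7 on DMSO arrays, and 71.9 on the A-485 array at 6 h, against 41.5 and 74.6 on DMSO arrays. The 24 h groups did not overlap (1.32 ± 0.30, limma adjusted p = 0.0109) and the 6 h groups did. The 24 h level stayed below every A375 and WM2664 array. In A375 HOXB3 read 419 on the A-485 array at 6 h, against 570.5 and 474 on DMSO arrays, and 499 at 24 h, against 456 and 461. In WM2664 it read 412 on the A-485 array at 6 h, against 349 and 346 on DMSO arrays, and 442 at 24 h, against 340 and 335, and none of these 4 differences was called. The difference in HOXB3 response between lines was not called either, at -1.20 ± 0.42 for A375 minus SKMEL5 at 24 h (log2). The call in SKMEL5 was lost with the deposited values (1.26, limma adjusted p = 0.0983) and, with its size at 1.32, without the 3 arrays of the other lines that carry transcripts of another line.

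HOXB8, which holds myeloid progenitors undifferentiated in the mouse, was called lower with A-485 in A375 at 6 h and higher in SKMEL5 at 24 h. It read 38.3 on the A375 A-485 array at 6 h, against 101.1 and 73.1 on DMSO arrays (-1.17 ± 0.24, limma adjusted p = 0.0181), and 97.1 at 24 h, against 93.0 and 117.2. In SKMEL5 it read 76.5 on the A-485 array at 24 h, against 53.6 and 38.5 on DMSO arrays (0.75 ± 0.24, limma adjusted p = 0.0434), and at 6 h 35.2, against the floor on both. In WM2664 it read 121.9 on the A-485 array at 6 h, against 80.6 and 79.8 on DMSO arrays, and 140.1 at 24 h, against 95.5 and 99.1, with neither called. The difference in HOXB8 response for A375 minus SKMEL5 was -1.31 ± 0.34 at 6 h and -0.86 ± 0.34 at 24 h (log2), not called at either time. The A375 call at 6 h was lost without A375 DMSO 6 h replicate 1, the array with the higher reading, and the SKMEL5 call was lost in 7 of 12 settings and without any 1 of the 4 WM2664 DMSO arrays, either SKMEL5 DMSO array of 6 h or SKMEL5 DMSO 24 h replicate 2.

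HOXD10 was called higher in A375, near the floor. It read 58.9 on the A-485 array at 6 h, against 37.1 and the floor on DMSO arrays (0.77 ± 0.09, limma adjusted p = 0.00143), and 50.5 at 24 h, against the floor and 33.5 on DMSO arrays (0.62 ± 0.09, limma adjusted p = 0.00327). All these readings lay within 2-fold of the floor, and both calls were lost with a floor of 16 or of 64. Both were also lost with generalized log2, the mean of probe sets and the deposited values. The other probe sets of HOXD10 were at the floor on every A375 array, with A-485 as with DMSO. In WM2664, where HOXD10 was bright, it read 249 on the A-485 array at 6 h, against 250.3 and 263 on DMSO arrays, and 249.6 at 24 h, against 264 and 281, and neither difference was called. In SKMEL5 it stayed at the floor with A-485.

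Smaller differences were called for 6 other members. HOXC4 was called in each line, higher in A375 at 24 h (0.54 ± 0.11, limma adjusted p = 0.0151), in SKMEL5 at 24 h (0.54 ± 0.11, limma adjusted p = 0.0076) and in WM2664 at 6 h (0.53 ± 0.11, limma adjusted p = 0.0114). At the remaining line and time pairs HOXC4 differed by 0.21 to 0.41, not called. HOXB7 rose in SKMEL5, to 400.3 at 6 h, against 317 and 323 on DMSO arrays (0.32 ± 0.06, limma adjusted p = 0.00904), and to 510.3 at 24 h, against 369 and 376 on DMSO arrays (0.45 ± 0.06, limma adjusted p = 0.00109). Its 3 probe sets all gave positive differences in SKMEL5, 0.27 to 0.32 at 6 h and 0.30 to 0.71 at 24 h.

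HOXC10 was lower in A375 at 6 h, at 226 on the A-485 array, against 336 and 333 on DMSO arrays (-0.56 ± 0.10, limma adjusted p = 0.0117), and was not called at 24 h. HOXB9 was lower in WM2664 at 24 h, at 89.3 on the A-485 array, against 121 and 139 on DMSO arrays (-0.54 ± 0.15, limma adjusted p = 0.0266). Its other probe set gave -1.26 there. HOXD11 was lower in WM2664 at 6 h, at 83.2 on the A-485 array, against 101.7 and 100.7 on DMSO arrays (-0.28 ± 0.06, limma adjusted p = 0.0087), a difference that turned positive with the deposited values. The call was also lost with a floor of 16 and with generalized log2. HOXD11 was at the floor on every A375 and SKMEL5 array, and these DMSO pairs add no scatter, which lowers its SE. The last of the 6, HOXD8, is given above. Leaving out 1 DMSO array ended several of the smaller calls at 24 h: HOXC4 in A375 without A375 DMSO 24 h replicate 1, HOXD8 in SKMEL5 without SKMEL5 DMSO 24 h replicate 2, HOXB9 in WM2664 without WM2664 DMSO 24 h replicate 2 and HOXC6 in WM2664 without WM2664 DMSO 24 h replicate 1. HOXC6 in A375 at 24 h was lost in 8 of 13 settings, without any 1 of the 4 A375 DMSO arrays, and without either SKMEL5 DMSO array of 6 h.

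Several members had differences as large that were not called. HOXB13 in WM2664 at 6 h differed by 1.04 ± 0.34 (limma adjusted p = 0.0588). HOXC13 in A375 at 24 h differed by -1.04 ± 0.36 (limma adjusted p = 0.0907). HOXC9 in SKMEL5 at 24 h differed by 0.89 ± 0.33 (limma adjusted p = 0.0759), and HOXD9 in A375 at 24 h by 0.94 ± 0.46 (limma adjusted p = 0.227). HOXA2, HOXB1, HOXB4, HOXB5, HOXB6, HOXB13, HOXC5, HOXC8, HOXC9, HOXC11, HOXC13, HOXD4, HOXD9 and HOXD13, 14 members, were called in no line at either time. The share of all genes called in none of these contrasts was not computed.

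The responses of the lines were also compared with each other by the interaction contrast. Between A375 and SKMEL5, 5 of 26 members differed at 6 h (19.2%, against 9.17% of all genes) and 4 at 24 h (15.4%, against 22.4%). Between A375 and WM2664, 4 differed at 6 h (15.4%, against 11.0%) and 2 at 24 h (7.69%, against 19.7%). Between SKMEL5 and WM2664, 3 differed at 6 h (11.5%, against 5.15%) and 3 at 24 h (11.5%, against 14.3%). The shares were above the background at 6 h and below it at 24 h in each pair of lines, with counts of 2 to 5 members. The comparisons share arrays, and 16 of the 21 called values belonged to HOXB2, HOXC6, HOXD1 and HOXD10, with 4 each. With the deposited values the HOXD1 difference for A375 minus SKMEL5 at 24 h alone stayed called of the 21.

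No member's response differed between 24 h and 6 h by limma at an adjusted p under 0.05 in any line. Of all genes, 3.38% in A375, 13.3% in SKMEL5 and 11.0% in WM2664 were called in the same contrasts. At an unadjusted p under 0.05 there were 4 of 26 members in A375 (all genes 15.7%), 2 in SKMEL5 (all genes 26.1%) and 2 in WM2664 (all genes 24.2%). Between DMSO arrays of 24 h and 6 h, 1 member was called in A375 (HOXC6, all genes 2.53%), 2 in SKMEL5 (HOXB7 higher and HOXC10 lower at 24 h, all genes 8.20%) and none in WM2664 by limma (all genes 1.64%). At an unadjusted p under 0.05 there were 5 of 26 members in WM2664, against 16.9% of all genes.

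Among the TALE cofactors, 7 of 9 listed genes were tested, and at most 1 in each direction was called with A-485 in any line and time. A single gene is 14.3% of the 7, and of all genes 5.53% to 20.4% rose and 6.98% to 15.6% fell. PKNOX2 fell most, to 108.9 in WM2664 at 6 h, against a mean of 652 on DMSO arrays (-2.58 ± 0.25, limma adjusted p = 0.000276), and it fell there at 24 h too (-1.77 ± 0.25). In DMSO its level was 3.33 lower in A375 than in WM2664 (log2 difference -3.33 ± 0.14) and lower in SKMEL5 than in WM2664 (-3.04 ± 0.14). PBX3, a direct DNA-binding partner of HOX proteins, was higher with A-485 in A375 at 24 h (0.78 ± 0.15), in SKMEL5 at 6 h (0.57 ± 0.15) and in WM2664 at 24 h (0.47 ± 0.15). MEIS1 was dimmer in A375 than in SKMEL5 by 0.84 (log2 difference -0.84 ± 0.13).

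Of the polycomb list, all 22 measured genes of 26 were tested. With A-485, 1 rose and 2 fell in A375 at 6 h, 1 rose and 1 fell in A375 at 24 h, 4 rose and 2 fell in SKMEL5 at 6 h, 5 rose and 2 fell in SKMEL5 at 24 h, 6 rose and 4 fell in WM2664 at 6 h, and 5 rose and 2 fell in WM2664 at 24 h. As shares of the 22, 4.55% rose in A375 at 6 h and again at 24 h (all genes 5.53% and 8.91%), 18.2% and 22.7% in SKMEL5 (all genes 12.6% and 20.4%), and 27.3% and 22.7% in WM2664 (all genes 15.1% and 17.9%). The shares that fell ran from 4.55% to 18.2%, and those of all genes from 6.98% to 15.6%. JARID2, which guides the polycomb methyltransferase complex to its targets, fell in A375 at 6 h (-0.82 ± 0.10), in SKMEL5 at both times (-1.04 ± 0.10 and -0.49 ± 0.10) and in WM2664 at both times (-1.92 ± 0.10 and -1.46 ± 0.10). EZH2, the methyltransferase itself, fell in SKMEL5 at 24 h (-1.22 ± 0.13) and rose at 6 h in SKMEL5 (0.61 ± 0.13) and WM2664 (0.56 ± 0.13). CBX7, a reader of the polycomb mark, rose at 24 h in SKMEL5 (1.28 ± 0.25) and WM2664 (0.91 ± 0.25).

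Of the trithorax and histone demethylase list, 12 of 13 genes were tested. With A-485, 1 rose and none fell in A375 at 6 h, 2 rose and 1 fell in A375 at 24 h, 4 rose and none fell in SKMEL5 at 6 h, 6 rose and 1 fell in SKMEL5 at 24 h, and 5 and 4 rose with none falling in WM2664 at 6 h and 24 h. As shares of the 12, 8.33% rose in A375 at 6 h and 16.7% at 24 h (all genes 5.53% and 8.91%), 33.3% and 50% in SKMEL5 (all genes 12.6% and 20.4%), and 41.7% and 33.3% in WM2664 (all genes 15.1% and 17.9%). The shares that fell were at most 8.33%, and those of all genes 6.98% to 15.6%. KDM6A, which removes the polycomb methyl mark, rose in all 6 line and time pairs, by 0.25 ± 0.06 to 0.69 ± 0.06. KMT2D, a methyltransferase of enhancers, rose in 5 of them, by up to 0.61 ± 0.06 in A375 at 24 h. The median of this list was between 0.07 and 0.36 (log2), where the median of all genes was between 0.00 and 0.01.

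Among the upstream regulators, 6 of 10 genes were tested. With A-485 at 6 h, 1 rose and 1 fell in A375, and 1 rose and none fell in SKMEL5. In WM2664 at 6 h none rose and 3 fell, and at 24 h none rose and 1 fell in each line. A single gene is 16.7% of the 6, and of all genes 5.53% to 20.4% rose and 6.98% to 15.6% fell. The 3 genes that fell in WM2664 at 6 h (50%) include CYP26A1. It passed the filter only through the WM2664 DMSO arrays, where it was high, so that share is not set against all genes. RARA, a retinoic acid receptor, fell in A375 at 6 h (-0.82 ± 0.11) and 24 h (-0.46 ± 0.11) and in WM2664 at 6 h (-1.33 ± 0.11) and 24 h (-0.70 ± 0.11). RARB, a receptor gene that is itself induced by retinoic acid, fell in WM2664 at 6 h (-1.68 ± 0.36), and was highest in WM2664 in DMSO, where A375 lay 3.17 lower (log2 difference -3.17 ± 0.21). CYP26A1, which degrades retinoic acid, was above the floor on the 4 WM2664 DMSO arrays alone, within 2-fold of it. These read 62.4 and 61.9 at 6 h and 57.6 and 36.1 at 24 h, and both WM2664 A-485 arrays were at the floor. CYP26A1 passed the filter through these DMSO arrays, and the DMSO pairs of the other lines add no scatter.

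Beside the clusters, TTLL6, a neighbour of the HOXB cluster that encodes a tubulin glutamylase, was above the floor on 4 arrays alone, all with A-485. It read 86.6 on the SKMEL5 A-485 array at 24 h, at least 2.71-fold above DMSO. In WM2664 it read 42.4 at 6 h and 51.5 at 24 h on the A-485 arrays. TTLL6 was at the floor on every DMSO array, so it passed the filter through the A-485 arrays alone. Its DMSO pairs showed no scatter, so its limma calls do not measure one. Among the HOX noncoding RNAs, HOXD-AS2 alone was called with A-485, in A375 at 24 h, at 143.5, against 75.4 and 93.3 on DMSO arrays (0.77 ± 0.15, limma adjusted p = 0.0104).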

How the data were processed

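Total RNA of the 18 samples was hybridised to 1-colour Affymetrix arrays, per the labels' protocols. The deposited table holds 1 linear intensity per probe set and array. Which software made these deposited intensities, and how it corrected background and scale, is not given in the sources used here. On each array, 19.3% to 22.9% of values were below 0. Array medians ran from 19.5 to 29.0, and the correlation of DMSO replicates over genes from 0.990 to 0.994.

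Titles gave each sample's line, treatment and time, and so its group. Of 54613 probe sets, 41091 had 1 symbol, 1801 had several and 11721 had none listed. Symbols were updated by Entrez identifier for 41037 of them. The deposited intensities were quantile normalized, values under 32 were raised to 32, and log2 values were used. The probe set with the highest average stood for a gene. A gene was tested when it lay above the floor on at least 2 arrays, which 13696 of 19775 genes did. Group means were fitted with limma 3.58.1 (R 4.3.3), with 6 residual degrees of freedom from the DMSO pairs and 1.57 from moderation, and p-values were adjusted by Benjamini-Hochberg within each contrast. The fit was tested on simulated data. Quantile normalization hides a shift shared by most genes, and the floor compresses differences of dim genes.

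Members given on every array were those called with A-485 at an absolute log2 difference of at least 1, and those above the floor on all DMSO arrays of 1 or 2 lines with a called line difference of at least 3. HOXC6, HOXB2, HOXB3, HOXB8, HOXD1 and HOXD10 met this. Up to 4 called genes of each companion list could be named, by largest difference. The members and lists were chosen with earlier results of these data known. Replicate numbers in the labels did not pair the arrays: 15 correlations between deviations of same-numbered arrays ran from -0.035 to 0.0585, none over 0.1. No arrays were identical. Alternatives covered scaling, floor, transformation, filter, probe set, spread, replicate block, control arrays and arrays left out. Promoters came from the RefSeq table (GRCh38.p14), which held 11 of the 28 members.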

Additional observations from a re-analysis of the deposited data

Results flagged for a closer look

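The response to A-485 differed between lines by the interaction contrast of limma (adjusted p under 0.05) for 7 members, in 21 values. All are log2 differences of the A-485 response, first line minus second, and a line in which the gene lies at the floor cannot show a fall.

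For A375 minus SKMEL5 at 6 h, the differences were HOXB7 at -0.37, HOXC6 at -0.94, HOXC10 at -0.80, HOXD1 at 2.52 and HOXD10 at 0.77. At 24 h they were HOXB7 at -0.47, HOXC6 at -0.84, HOXD1 at 1.94 and HOXD10 at 0.62.

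For A375 minus WM2664 at 6 h, they were HOXB2 at -1.11, HOXB8 at -1.77, HOXC10 at -0.59 and HOXD10 at 0.82. At 24 h they were HOXB2 at -1.10 and HOXD10 at 0.75.

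For SKMEL5 minus WM2664 at 6 h, they were HOXB2 at -0.96, HOXC6 at 0.62 and HOXD1 at -1.82. At 24 h they were HOXB2 at -1.28, HOXC6 at 0.83 and HOXD1 at -1.52. HOXB2 and HOXD10 were at the floor on all SKMEL5 arrays, so their values against SKMEL5 equal the response of the other line. With the values as deposited, 1 of the 21 stayed called, and none of the other 20 changed sign. A floor of 16 ended 9 of the 21 calls, generalized log2 ended 6, and 4 were lost in each of 3 settings, namely a floor of 64, the mean of probe sets, and leaving out the arrays with transcripts of another line. With 1 DMSO array left out in turn, HOXC10 for A375 minus WM2664 at 6 h stayed called in 2 of 12 fits, HOXB7 for A375 minus SKMEL5 at 6 h in 7 and HOXB2 for SKMEL5 minus WM2664 at 6 h in 9, and the other 18 in all 12.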

How the results depend on the processing

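The A-485 calls of HOXB2 in WM2664 and of HOXC6 and HOXD1 in SKMEL5 alone held in every setting that tested them. They also held with each DMSO array left out. The differences ran from 0.83 to 1.33 at 6 h and 1.23 to 1.56 at 24 h for HOXB2. For HOXC6 they were 0.76 to 1.12 and 1.02 to 1.14, and for HOXD1 -1.77 to -0.85 and -1.83 to -0.85. HOXB2 and HOXC6 were tested in 13 settings and HOXD1 in 12. Without x and s probe sets HOXD1 was not tested, because its remaining probe set was at the floor on every array. The HOXD1 calls rest on its brightest probe set alone. With values as deposited, 7 of 23 A-485 calls and 50 of 54 line calls stayed, the counts called were 0 in A375 at both times, 2 in SKMEL5 at 24 h and 1 in WM2664 at 24 h, and HOXD11 in WM2664 at 6 h reversed to 0.18 (cause not tested). The median of all genes moved to 0.40 there and to 0.27 for A375 minus WM2664. With a floor of 64 the counts were 5 in SKMEL5 at 6 h, 5 in WM2664 at 6 h and 6 in WM2664 at 24 h. Above the floor on all 4 SKMEL5 DMSO arrays there were 6 members with a floor of 64 and 12 with the floor of 32, and at the floor of 32 there were 19 on at least 1 of the 4. In A375 at 24 h the count was 1 with a floor of 16 and 1 with generalized log2. In A375 at 6 h it was 2 without x and s probe sets. Without the arrays carrying transcripts of another line it was 2 in A375 at 6 h and 4 in SKMEL5 at 24 h. With both DMSO times as 1 control it was 1 in WM2664 at 24 h. With 1 array left out the counts ran from 3 to 6 in A375 at 6 h, 1 to 4 in A375 at 24 h, 3 to 5 in SKMEL5 at 6 h, 6 to 8 in SKMEL5 at 24 h, 3 to 4 in WM2664 at 6 h and 2 to 5 in WM2664 at 24 h. The extremes came without A375 DMSO 24 h replicate 1 (1), either SKMEL5 DMSO 24 h array (5 at 6 h) and either WM2664 DMSO 6 h array (5 at 24 h). The replicate block kept 21 of 23 A-485 calls and 54 of 54 line calls, and lost HOXB8 in SKMEL5 at 24 h (0.70) and HOXC6 in A375 at 24 h (0.26). The floor limits the falls that dim members such as HOXB8, HOXD10 and HOXD11 could show.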

Other observations

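Geminin (GMNN), an inhibitor of replication licensing that is also known to bind HOX proteins, was the single tested gene of 4 measured in a list of geminin and anterior homeobox genes. It rose with A-485 at 6 h in A375 (0.37 ± 0.06, limma adjusted p = 0.009) and WM2664 (0.25 ± 0.06, limma adjusted p = 0.0257). At 24 h it fell in SKMEL5 (-1.01 ± 0.06, limma adjusted p = 2.35e-05) and in WM2664 (-0.69 ± 0.06, limma adjusted p = 0.00019). GDF11, a secreted signal that sets the onset of posterior HOX genes in the mouse, fell with A-485 in SKMEL5 at 24 h (-0.83 ± 0.15, limma adjusted p = 0.00426).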
